A study of Mus musculus with 24 samples.

Results

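Imprinted transcripts are RNAs made mainly from the chromosome inherited from 1 parent. The 5 described here are Meg3, H19, Kcnq1ot1, Peg3 and Snrpn, out of 49943 mouse genes in the RefSeq table of assembly GRCm38.p6 (the assembly called mm10). They are followed through the regions that overlap 5 fixed windows of 41, 13, 93, 37 and 33 kb around these genes. The windows held 208 of the 1811308 regions in the 6 deposited lists. The choice used names and positions and no measured value, but it was made with earlier results of these data known.

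Chromatin immunoprecipitation and sequencing (ChIP-seq) was used to map NELF and SPT5 in E14, a mouse embryonic stem cell line kept in serum with LIF. All 6 libraries came from samples labelled as controls that carry the genotype "Nelfb deg", so the control cells bear the altered Nelfb allele too. Each antibody had 2 libraries: NELFB:HA was recovered through the HA tag, NELFE with an antibody to NELFE, and SPT5 with an antibody to DSIF. The series lists 24 samples, and the other 18, which include the samples treated with dTAG-13, are not analysed here. The labels do not say whether replicate libraries came from separate cultures, so each p-value measures only the spread between these libraries.

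RNA polymerase II pauses shortly after it starts a transcript. NELF, of which NELFB and NELFE are subunits, and DSIF, of which SPT5 is a subunit, bind the polymerase there. NELF is released when the pause ends, while DSIF stays with the elongating polymerase. Kcnq1ot1, Peg3 and Snrpn are made from the paternal chromosome, and the DNA at their starts is methylated on the maternal copy. Meg3 and H19 are made from the maternal chromosome, each under a control region that lies upstream of the gene and is methylated on the paternal copy. The lists do not separate the parental chromosomes, so binding on 1 copy cannot be told apart from weaker binding on both copies or from binding in a fraction of the cells.

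The sequences of 4 of the 5 starts are shown because the binding described below is placed relative to them. Each is 300 bases from RefSeq on GRCm38.p6, 5′ to 3′ in the direction of the transcript, with the start at base 251 and each CpG, the pair of letters that is methylated in mammals, in capitals. Meg3 lies at chr12:109540746-109541045 on the plus strand, Kcnq1ot1 at chr7:143296498-143296797, Peg3 at chr7:6730370-6730669 and Snrpn at chr7:60005150-60005449, the last 3 on the minus strand.
Meg3: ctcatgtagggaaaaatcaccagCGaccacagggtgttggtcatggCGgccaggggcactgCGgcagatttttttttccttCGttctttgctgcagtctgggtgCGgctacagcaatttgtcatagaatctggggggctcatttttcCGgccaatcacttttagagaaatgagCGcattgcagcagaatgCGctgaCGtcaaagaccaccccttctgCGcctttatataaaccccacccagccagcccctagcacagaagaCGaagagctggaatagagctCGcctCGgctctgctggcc
Kcnq1ot1: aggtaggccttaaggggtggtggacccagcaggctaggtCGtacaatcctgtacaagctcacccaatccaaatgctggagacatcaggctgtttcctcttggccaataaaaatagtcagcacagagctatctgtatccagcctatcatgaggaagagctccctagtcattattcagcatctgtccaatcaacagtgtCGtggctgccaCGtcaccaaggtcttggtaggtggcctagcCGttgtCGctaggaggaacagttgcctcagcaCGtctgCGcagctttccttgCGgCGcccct
Peg3: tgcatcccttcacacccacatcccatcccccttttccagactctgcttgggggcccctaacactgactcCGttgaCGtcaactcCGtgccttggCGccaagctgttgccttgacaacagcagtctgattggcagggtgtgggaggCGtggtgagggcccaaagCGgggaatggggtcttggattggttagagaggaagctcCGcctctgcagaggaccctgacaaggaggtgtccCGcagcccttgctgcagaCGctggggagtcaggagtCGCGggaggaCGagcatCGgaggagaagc
Snrpn: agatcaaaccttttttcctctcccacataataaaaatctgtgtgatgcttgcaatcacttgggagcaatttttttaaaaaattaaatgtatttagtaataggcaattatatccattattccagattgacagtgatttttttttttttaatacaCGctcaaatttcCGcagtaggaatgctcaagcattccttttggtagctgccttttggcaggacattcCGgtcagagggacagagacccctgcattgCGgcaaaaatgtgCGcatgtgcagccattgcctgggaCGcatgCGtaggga

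The 4 starts were not alike in sequence. Meg3 and Peg3 had 13 CpGs each, Kcnq1ot1 had 9 and Snrpn had 7, where the median over 32817 listed starts was 7. The Snrpn start was 40.3% G and C, against 53.3% at Kcnq1ot1, 53.7% at Meg3 and 61.3% at Peg3. A search of both strands for CCAAT, the letters of the CCAAT box, found 3 matches at Kcnq1ot1 (bases 63, 103 and 184), 2 at Peg3 (127 and 182), 1 at Meg3 (151) and none at Snrpn. These letters occur in 37.4% of all listed starts. TGACGTCA, the cyclic AMP response element, was found at base 194 of Meg3 and base 73 of Peg3, and in 1.79% of all starts. TATAAA, the TATA box, was found only at Meg3 among the 4, at bases 222 and 226, which overlap on opposite strands, and in 13.6% of all starts. TGCCGC, the hexamer bound by the imprint-keeping factor ZFP57, was found at base 61 of Meg3 and base 249 of Snrpn, both on the minus strand of the window, and in 11.6% of all starts. GCCATNTT, a core of the YY1 motif, was in none of the 4 and in 6.04% of all starts. A match is a match of letters in this window only.

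A region is called strong here when its deposited q-value is 0.01 or less. Peg3 and Snrpn had a strong region over the start in all 6 libraries, and Kcnq1ot1 in 5 of 6. Meg3 and H19 had no strong region in any library. Each of the 17 strong regions in the 5 windows lay over a start, 1 per window and library, and all others were weak. Among all 27025 genes with a listed start, 26.5% had a strong region there in both NELFB:HA libraries, 31.1% in both NELFE libraries, 22.6% in both SPT5 libraries and 21.1% in all 6. The 5 windows had a strong region in both libraries of an antibody in 2 cases with NELFB:HA and in 3 cases with either NELFE or SPT5. With 5 genes these counts describe the genes named and are not a share to set against the background with a test. Counted over the gene and 5 kb on either side, 23.5%, 28.1% and 20.3% of all 49943 genes had such a region in both NELFB:HA, both NELFE and both SPT5 libraries.

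**Figure D1:**
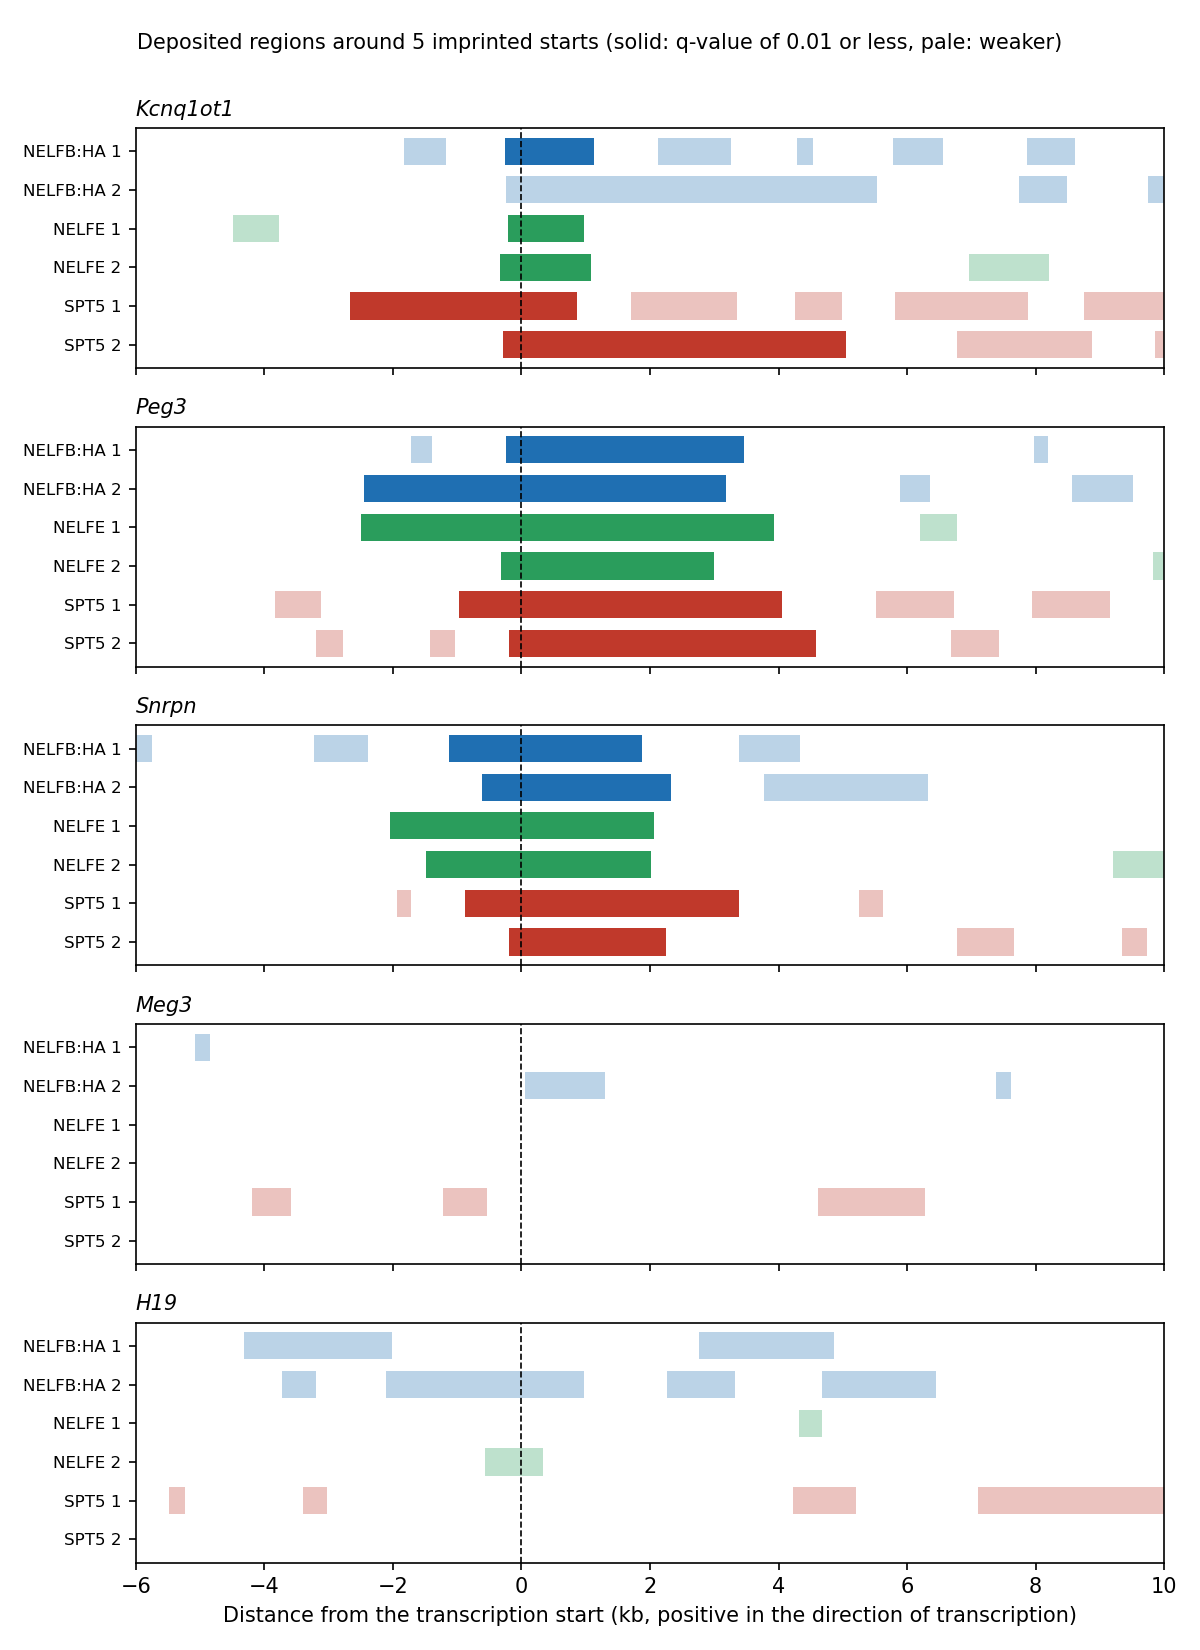
Map of the deposited regions from 6 kb before to 10 kb after the start of each gene (x axis in kb, positive in the direction of transcription), with 1 line per library. Solid bars are regions with a q-value of 0.01 or less and pale bars are weaker regions, drawn where they overlap a window (the windows end short of the left edge and, at H19, of the right edge). Solid bars cross the dashed start line in all 6 libraries at Peg3 and Snrpn and in 5 at Kcnq1ot1, and there is none at Meg3 or H19.

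Kcnq1ot1 (gene ID 63830) is a long noncoding RNA, read on the minus strand of chromosome 7 from 143296547 to 143213111, inside and antisense to Kcnq1 (143106877-143427050), a potassium channel gene. It represses neighbouring genes on the paternal chromosome. Fold enrichment, the authors' ratio of ChIP coverage to local input, over its start was 3.13 and 2.14 with NELFB:HA, 4.69 and 4.35 with NELFE and 2.45 and 2.15 with SPT5. The NELFE values were the highest and the second NELFB:HA value the lowest, with a q-value of 0.0479, so that this library had no strong region at Kcnq1ot1. The q-values of the other 5 regions ran from 1.64e-11 in the second NELFE library to 0.00783 in the second SPT5 library.

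Among strong regions, the Kcnq1ot1 start region was shorter with NELF than with SPT5, while the longest of all 6 was the weak region of the second NELFB:HA library. It spanned chr7:143295414-143296793 and chr7:143291018-143296790 in the NELFB:HA libraries (1380 and 5773 bp, the latter weak). In the NELFE libraries it spanned chr7:143295569-143296759 and chr7:143295465-143296889 (1191 and 1425 bp). In the SPT5 libraries it spanned chr7:143295676-143299209 and chr7:143291494-143296826 (3534 and 5333 bp). The 3 strong NELF regions ended 0.98 to 1.13 kb after the start. The SPT5 regions did not extend the same way: the first reached 2.66 kb upstream and 0.87 kb downstream, and the second 0.28 kb upstream and 5.05 kb downstream. All 6 regions shared chr7:143295676-143296759, a stretch of 1084 bp with 212 bases before the start and 871 after it.

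By mean pileup, the scaled ChIP coverage of a region, the Kcnq1ot1 start ranked 8406 of 343503 and 12417 of 447756 in the NELFB:HA lists. It ranked 7460 of 203679 and 6643 of 217115 in the NELFE lists, and 7144 of 462153 and 9909 of 137102 in the SPT5 lists. These ranks lie in the top 1.55% to 7.23% of lists that hold mostly weak regions. Set against strong regions over any start in the same library, the Kcnq1ot1 fold was modest: 43.6% and 34.6% of them had a lower fold in the NELFE libraries, 21.4% in the first NELFB:HA library, and 6.32% and 2.58% in the SPT5 libraries.

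Peg3 (gene ID 18616) encodes a zinc finger protein with roles in growth and maternal behaviour, and is read on the minus strand of chromosome 7 from its start at 6730419 within the gene bounds 6703892-6730462. Usp29, a paternally expressed gene of the ubiquitin peptidase family, starts 164 bp away at 6730583 and runs in the opposite direction, so a region here covers both starts. The fold over the Peg3 start was 3.42 and 2.64 with NELFB:HA, 3.06 and 3.71 with NELFE and 2.96 and 3.07 with SPT5. The values of each antibody overlapped those of the others, and the SPT5 values lay closest together. The least significant of the 6 had a q-value of 0.0014, in the second NELFB:HA library, and the most significant had 5.36e-08, in the first.

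Peg3 had broad start regions, the longest of the 3 genes in 3 of the 6 libraries (the first of each antibody). They spanned chr7:6726946-6730661 and chr7:6727236-6732865 with NELFB:HA (3716 and 5630 bp), and chr7:6726486-6732912 and chr7:6727418-6730726 with NELFE (6427 and 3309 bp). With SPT5 they spanned chr7:6726358-6731388 and chr7:6725843-6730621 (5031 and 4779 bp). In all 6 libraries the region reached at least 3001 bases into Peg3, while the reach past the start towards Usp29 varied from 0.20 to 2.49 kb. The stretch common to all 6, chr7:6727418-6730621, was 3204 bp long and held 202 bases on the Usp29 side. Between 74.6% and 99.2% of strong start regions in the same library were shorter. The fold was not high for such regions: 11.4% to 28.6% had a lower fold in the NELF libraries, 38.4% in the first SPT5 library and 56.2% in the second.

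The pileup rank of the Peg3 start was 7190 and 8728 in the NELFB:HA lists, 8569 and 8141 in the NELFE lists, and 5957 and 4278 in the SPT5 lists. Within each list, Peg3 had the highest pileup of the 5 windows in both NELFB:HA and both SPT5 libraries. In both NELFE libraries it was the lowest of the 3 paternally expressed genes, and Kcnq1ot1 was the highest. This order was seen in each library of the antibody, and no test of it was run.

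Snrpn (gene ID 20646) encodes SmN, a protein of small nuclear ribonucleoproteins that take part in splicing. The start examined, at 60005199 on the minus strand of chromosome 7, is shared with Snurf, whose reading frame lies upstream in the same transcript. The fold over this start was 3.89 and 2.89 with NELFB:HA, 4.29 and 5.11 with NELFE and 2.80 and 3.08 with SPT5. Both NELFE values lay above all other values at this start, and the second NELFE value was the highest of all regions in the 5 windows. Strong regions over any start had higher folds with NELFE in general, with medians of 5.07 and 5.32. The medians were 4.42 and 3.78 with NELFB:HA and 3.15 and 2.95 with SPT5. Of these regions, 36.9% and 47% had a lower fold than Snrpn in the NELFE libraries. The values were 39.2% and 21.1% with NELFB:HA and 28.3% and 56.8% with SPT5. The q-values ran from 4.94e-13 in the second NELFE library to 0.00481 in the first SPT5 library.

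The Snrpn regions spanned chr7:60003322-60006317 and chr7:60002865-60005820 with NELFB:HA (2996 and 2956 bp), and chr7:60003133-60007253 and chr7:60003174-60006692 with NELFE (4121 and 3519 bp). With SPT5 they spanned chr7:60001820-60006068 and chr7:60002946-60005390 (4249 and 2445 bp). The NELFE regions reached farthest before the start, 2.05 and 1.49 kb, against 0.19 to 1.12 kb in the other 4 libraries. Downstream, the NELF regions ended within 1.88 to 2.33 kb, and the SPT5 regions at 3.38 and 2.25 kb. All 6 shared chr7:60003322-60005390, 2069 bp with 191 bases before the start and 1877 after it. By pileup the region ranked 7725 and 10478 in the NELFB:HA lists, 8375 and 6761 in the NELFE lists and 10068 and 8339 in the SPT5 lists.

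RefSeq lists 4 starts for Snrpn, of which 3 lie upstream of the window, at 60450177, 60140225 and 60047978. No library had a region at the first or the second of these. At 60047978 the first SPT5 library had a weak region with a fold of 1.49, and the other 5 libraries had none. Of the listed starts, the one shared with Snurf was thus the only start with strong regions in these 6 lists.

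**Figure D2:**
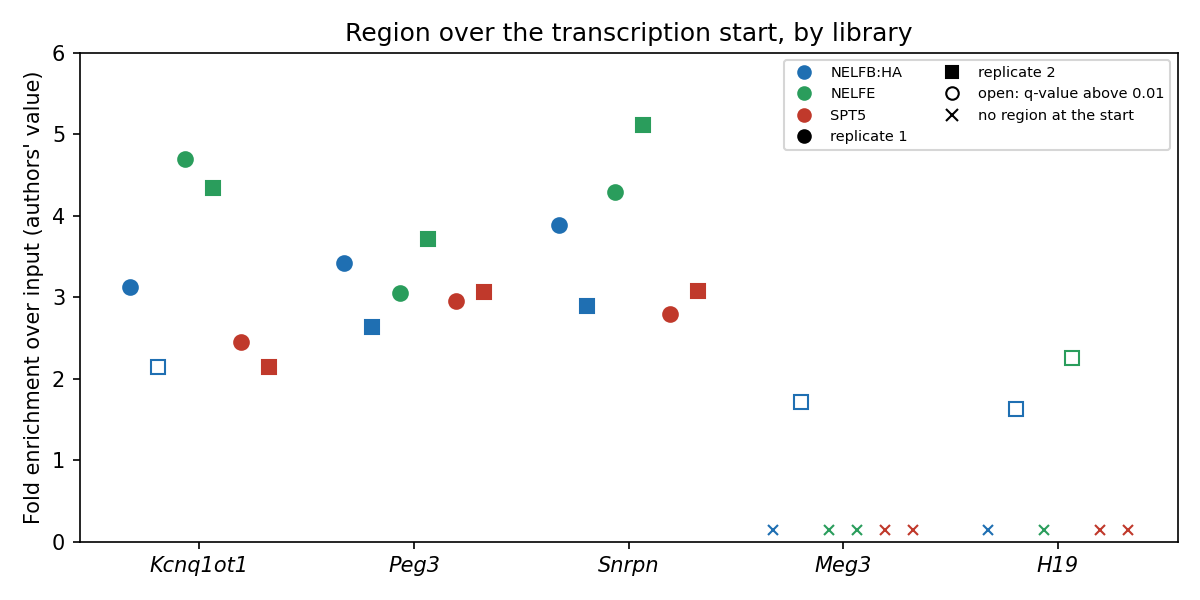
Fold enrichment over input, the authors' value, of the region over each start (y axis) for the 5 genes (x axis), 1 point per library. Filled points have a q-value of 0.01 or less, open points a higher one, and crosses near the axis mark libraries with no region at the start and carry no value. Points at Kcnq1ot1, Peg3 and Snrpn lie between 2.14 and 5.11, and Meg3 and H19 have only open points and crosses.

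Meg3 (gene ID 17263) is a maternally expressed long noncoding RNA on the plus strand of chromosome 12 at 109540996-109571729, in a domain that also holds Dlk1, Rtl1, Rian, Mirg and Dio3. A single library, the second NELFB:HA one, had a region at its start, of 1252 bp at chr12:109541045-109542296 with a fold of 1.71 and a q-value of 0.869. This region meets the interval counted as the start, from 250 bases before to 50 after it, by its first base alone. It ranked 172204 by pileup in its list. The other listed Meg3 start, at 109545398, had no region in any library. Regions of any strength were common at starts in general: 53.9% and 57.2% of all genes with a listed start had 1 with NELFB:HA, 48.2% and 49.2% with NELFE, and 57% and 42.6% with SPT5.

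The Meg3 window held 5 and 7 regions in the NELFB:HA lists, 1 and 1 in the NELFE lists and 5 and 1 in the SPT5 lists. They covered 7.44% and 19.5% of the window with NELFB:HA, 0.668% and 1.5% with NELFE, and 9.89% and 0.519% with SPT5. Regions covered 13.1%, 20.2%, 6.55%, 6.69%, 19% and 5% of chromosome 12 in the same order of libraries, so the window was less covered than its chromosome in all 6. The regions of highest pileup shared no place across libraries other than a stretch common to the second NELFB:HA and the second SPT5 library. In the NELFB:HA lists it was at chr12:109535922-109536148 (fold 1.60, rank 111110) and chr12:109555983-109559140 (fold 1.89, rank 122011). In the NELFE lists it was at chr12:109565750-109566023 (fold 1.99, rank 59662) and chr12:109570999-109571613 (fold 1.75, rank 203452). In the SPT5 lists it was at chr12:109552252-109552902 (fold 1.88, rank 153826) and chr12:109556110-109556322 (fold 1.60, rank 70903). Of 14 separate stretches, made by joining regions that overlap, 9 were seen in 1 library and none drew on more than 3.

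H19 (gene ID 14955) is a maternally expressed long noncoding RNA, the host of the microRNA Mir675, at chr7:142575530-142578146 on the minus strand. Its start was taken as the end of the gene, 142578146. The second NELFB:HA library had a region there of 3095 bp at chr7:142577165-142580259, with a fold of 1.63 and a q-value of 0.945. The second NELFE library had a region of 900 bp at chr7:142577818-142578717, with a fold of 2.26 and a q-value of 0.529. The other 4 libraries had none at the start, and the second SPT5 library had none in the whole window.

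The control region that H19 shares with Igf2 lies upstream of H19, and the lists held weak regions on that side. The first NELFB:HA library had a region from 2.02 to 4.32 kb upstream, chr7:142580167-142582468, with a fold of 1.72 and a q-value of 0.901, which was its highest in the window (rank 159232). The second NELFB:HA library had a region from 3.20 to 3.72 kb upstream with a fold of 1.56, and the first SPT5 library had regions from 3.02 to 3.40 kb (fold 1.65) and from 5.23 to 5.48 kb (fold 2.20, rank 51199). The NELFE libraries had none apart from the start region of the second. The highest region of the first NELFE library lay downstream at chr7:142573465-142573831, with a fold of 1.71 and rank 167704. The H19 window was covered to 33.8% and 49.5% by NELFB:HA regions, above the 13.8% and 20.8% of chromosome 7. NELFE regions covered 2.82% and 6.92% of it (chromosome 7.32% and 7.95%) and SPT5 regions 12.6% and 0 (chromosome 20.0% and 6.13%), so only with NELFB:HA did it exceed the chromosome, and through weak regions alone.

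The next comparison asks whether strong regions were longer with 1 antibody than with another. All strong lengths at Meg3 and H19 were 0, so 9 tests on the other 3 genes were run, and the smallest p-value an exact permutation test can give with 2 libraries against 2 is 0.333. At Kcnq1ot1 the strong length was 4433.5 ± 1272.1 bp with SPT5 (SD, n = 2), 1308 ± 165 bp with NELFE and 690 ± 976 bp with NELFB:HA, whose second library counts as 0. Both SPT5 libraries exceeded all 4 NELF libraries at this threshold and not at others: at a q-value of 0.05 the second NELFB:HA library counts 5773 bp, above both SPT5 libraries, and at 1e-05 both SPT5 libraries count 0. SPT5 minus NELFE was 3125.5 bp (pooled SD 907) and SPT5 minus NELFB:HA 3743.5 bp (pooled SD 1133.7), each with a two-sided exact permutation p of 0.333. At a q-value of 0.05 the latter was 857 bp and at 1e-05 it was 0, while SPT5 minus NELFE was -1308 bp at 1e-05. NELFB:HA minus NELFE was -618 bp, within the pooled SD of 700 (exact permutation p = 0.667).

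Lengths at Peg3 did not separate by antibody: 4673 ± 1353.4 bp with NELFB:HA, 4868 ± 2204.8 bp with NELFE and 4905 ± 178 bp with SPT5 (SD, n = 2 each). The 3 differences were 37 to 232 bp in size, below pooled SDs of 965 to 1829.3 bp, each with an exact permutation p of 1. At Snrpn the lengths were 2976 ± 28.3 bp with NELFB:HA, 3820 ± 426 bp with NELFE and 3347 ± 1275.6 bp with SPT5 (SD, n = 2 each). Both NELFE regions exceeded both NELFB:HA regions, and NELFB:HA minus NELFE was -844 bp (pooled SD 302, exact permutation p = 0.333). The SPT5 lengths overlapped both. Adjusted by Benjamini-Hochberg over the 9 tests, every p was 1. SPT5 libraries had tags of 100 and 101 bp and shared 1 input, where the NELF libraries had tags of 50 bp and an input each, so antibody and batch cannot be told apart in any difference with SPT5.

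All regions of the Kcnq1ot1 window away from the start were weak. The window, the longest of the 5, held 18 and 20 regions with NELFB:HA, 16 and 14 with NELFE and 29 and 14 with SPT5. They covered 43.1% and 35.2% of the window in the SPT5 libraries, against 20.0% and 6.13% of chromosome 7. With NELFB:HA they covered 19.7% and 36.1% (chromosome 13.8% and 20.8%), and with NELFE 11.4% and 15.2% (chromosome 7.32% and 7.95%). Each library thus covered more of the window than of the chromosome, and the second SPT5 library, with the most tags and the shortest list, by the widest ratio.

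The part of Kcnq1ot1 more than 6 kb after its start, 77.4 kb long, was set beside the same part of 4472 genes between 0.5 and 2 times its length. SPT5 regions covered 42.2% and 35.4% of it, where the median gene was covered to 24.4% and 4.87%, and 89.4% and 94.9% of these genes were less covered. NELFE regions covered 9.32% and 14.2%, with 55.2% and 75.6% of genes less covered. NELFB:HA regions covered 15.6% and 33.5%, with 43.4% and 76.7% of genes less covered. Kcnq1ot1 thus stood higher among genes of like length with SPT5 than with NELF in both libraries, a description for which no test was run. Snurf and Peg3 did so too, as given below, so this order was not particular to Kcnq1ot1. The regions carry no strand and this part lies inside Kcnq1, so the coverage cannot be assigned to 1 of these genes.

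Along Kcnq1ot1 in steps of 10 kb, SPT5 coverage was high in both libraries near the start and between 60 and 70 kb, and differed between the libraries in other steps. It was 65.4% and 73.0% over the first 10 kb after the start, 19.3% and 5.71% between 20 and 30 kb, and was 69.5% and 93.3% between 60 and 70 kb. Between 30 and 40 kb it was 56.5% in the first library and 10.8% in the second. In the last step, which ends at the gene's end, it was 10.5% and 0. The most covered step was between 60 and 70 kb in both SPT5 libraries and, at 30.2%, in the first NELFE library. In the second NELFB:HA library it was between 70 and 80 kb, at 66.4%, and in the first NELFB:HA and the second NELFE library it was the first step, at 40.5% and 23.1%.

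Regions that overlap in a chain were joined into stretches, so the libraries of a stretch need not share a base. Only 3 of the 25 separate stretches in the Kcnq1ot1 window had a region in all 6 libraries, the start and a pair of neighbours in the distal part of the gene. At the start all 6 shared 1084 bp. In neither of the pair did a region of the first NELFB:HA library overlap a NELFE region, so the pair are not sites shared by all 6. The longer of the pair, chr7:143223040-143236567, lay 60.0 to 73.5 kb after the start. SPT5 regions covered 70.5% and 75.6% of it, NELFB:HA regions 22.7% and 48.1%, and NELFE regions 22.4% and 15.4%. In the second SPT5 library most of it was a single region of 9330 bp, chr7:143226634-143235963, with a fold of 2.05, a q-value of 0.319 and a pileup rank of 31411. No region there was strong, and the highest fold per library ran from 1.86 to 2.05. The other, chr7:143236871-143243011, lay 53.5 to 59.7 kb after the start and held the most significant region of the 5 windows away from a start in the NELFE libraries, with a fold of 2.57 and a q-value of 0.0734 in the first.

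**Figure D3:**
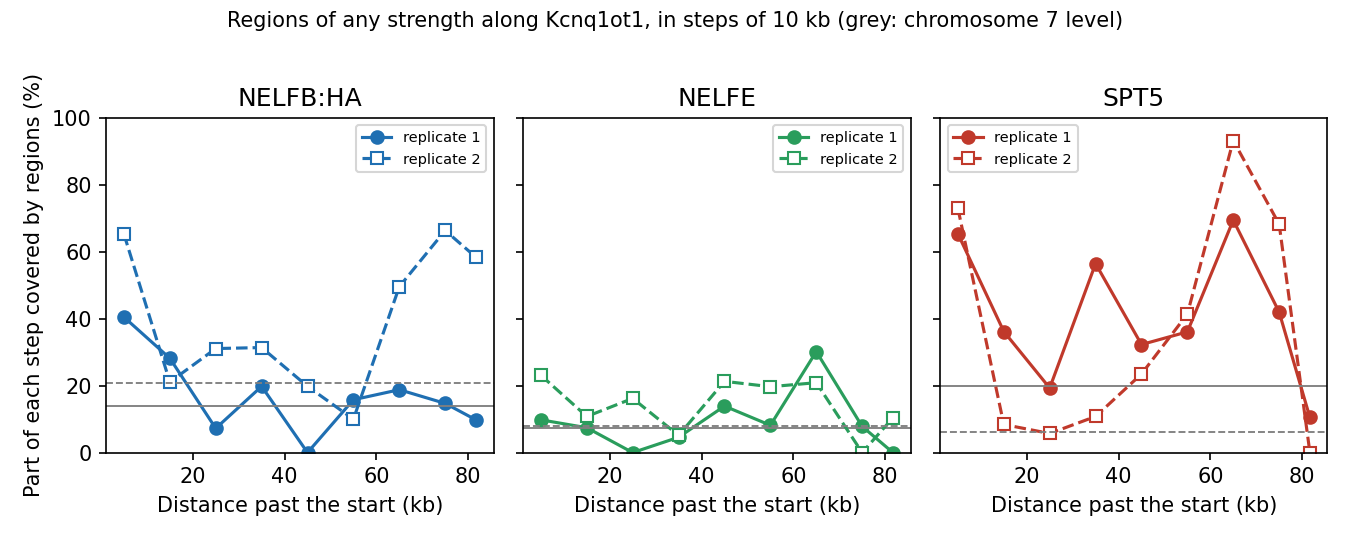
Percent of each 10 kb step of Kcnq1ot1 covered by regions of any strength (y axis) against the distance past the start in kb (x axis), with 1 panel per antibody and 1 line per replicate. Grey lines give the level of chromosome 7 in the same library, and the last step is shorter. Both SPT5 lines are high in the first step (65.4% and 73.0%) and between 60 and 70 kb (69.5% and 93.3%).

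SPT5 coverage beyond 6 kb was lower in the other genes. For the 16.7 kb of Snurf beyond 6 kb, SPT5 regions covered 40.9% and 22.4%, with 78.6% and 83.3% of genes of like length less covered. NELFE regions covered 0 and 8.54% of it, with 0 and 50.4% of genes less covered. NELFB:HA regions covered 11.4% and 24.9%, with 36% and 50.8% of genes less covered. The same part of Peg3, 20.6 kb, was covered to 22.7% and 7.53% by SPT5 regions, with 44.3% and 60.5% of genes less covered, and to 2.83% and 1.10% by NELFE regions. With NELFE 27% and 18.5% of genes were less covered than Peg3, and with NELFB:HA 26.6% and 22.4%. In Meg3, 24.7 kb, SPT5 regions covered 5.59% and 0.861%, below the medians of 24.7% and 4.84%. Genes less covered than Meg3 were 8.2% and 28.7% with SPT5, 17.4% and 21.2% with NELFE and 34.4% and 43.3% with NELFB:HA. Snurf and Peg3 thus also stood higher with SPT5 than with NELF in both libraries, and Meg3 did not. Among these 4 genes, Kcnq1ot1 was the most covered by SPT5 beyond 6 kb in both libraries and Meg3 the least.

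Other imprinted genes were counted to place the 5. Of 49 listed, 39 had a start in the RefSeq table. Strong regions over the start were present in both NELFB:HA libraries at 18 (46.2%), in both NELFE libraries at 19 (48.7%) and in both SPT5 libraries at 14 (35.9%), where all genes gave 26.5%, 31.1% and 22.6%. Protein-coding genes gave 36.2%, 42.4% and 31% and long noncoding RNA genes 8.63%, 10.4% and 7.33%. In all 6 libraries 13 of the 39 had a strong start, in none 16, and in 1 to 5 libraries 10. A strong start in all 6 was found at 21.1% of all genes, 29.1% of protein-coding and 6.49% of long noncoding RNA genes. No share over all genes is given here for the other counts. Usp29 and Snurf, which are among the 13, share their regions with Peg3 and Snrpn.

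The imprinted genes with strong starts in all 6 libraries included Mest, a paternally expressed hydrolase-family gene, with folds from 2.47 to 3.75. Gnas, which encodes a G protein alpha subunit, had folds from 2.51 to 6.46, and H13, a signal peptide peptidase gene, from 3.67 to 5.95. Cd81, a tetraspanin gene at the edge of the Kcnq1ot1 domain, had folds from 2.83 to 8.56, and Ube3a, a ubiquitin ligase gene in the domain of Snrpn, from 2.78 to 9.11. Igf2r and Grb10, which code for a receptor and an adaptor of growth factor signalling, were strong in 5 libraries each and not in the first SPT5 library.

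Genes beside Meg3 and H19 were mostly without strong starts, as were most genes. Of all genes with a listed start, 26.5% had one in both NELFB:HA libraries, 31.1% in both NELFE and 22.6% in both SPT5 libraries. Igf2, the growth factor gene that shares a control region with H19, had none in any library, with a highest fold of 2.00. In the Meg3 domain, Rian and Mirg, noncoding RNAs downstream of Meg3, had no region at their listed starts, and Dlk1, a paternally expressed Notch-related gene, had a highest fold of 1.53. Dio3, a thyroid hormone deiodinase gene at the far end, was strong in 3 libraries, the first NELFB:HA and both NELFE ones, with a highest fold of 3.46. Within the Kcnq1ot1 domain, Tssc4 was strong in all 6 libraries, Phlda2 in 2 and Ascl2 in none. Cdkn1c, Nap1l4 and Kcnq1 had no listed start. Within the gene or 5 kb of it, Cdkn1c and Nap1l4 had strong regions in both libraries of each antibody. Kcnq1, which contains Kcnq1ot1, had them in both NELFE and both SPT5 libraries. Of all genes, 23.5% had such a region in both NELFB:HA libraries, 28.1% in both NELFE and 20.3% in both SPT5 libraries. Beside Peg3, Zim1 had weak regions in 3 libraries, of which the first NELFE one had a fold of 2.89 and a q-value of 0.0101, just above the threshold.

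**Figure D4:**
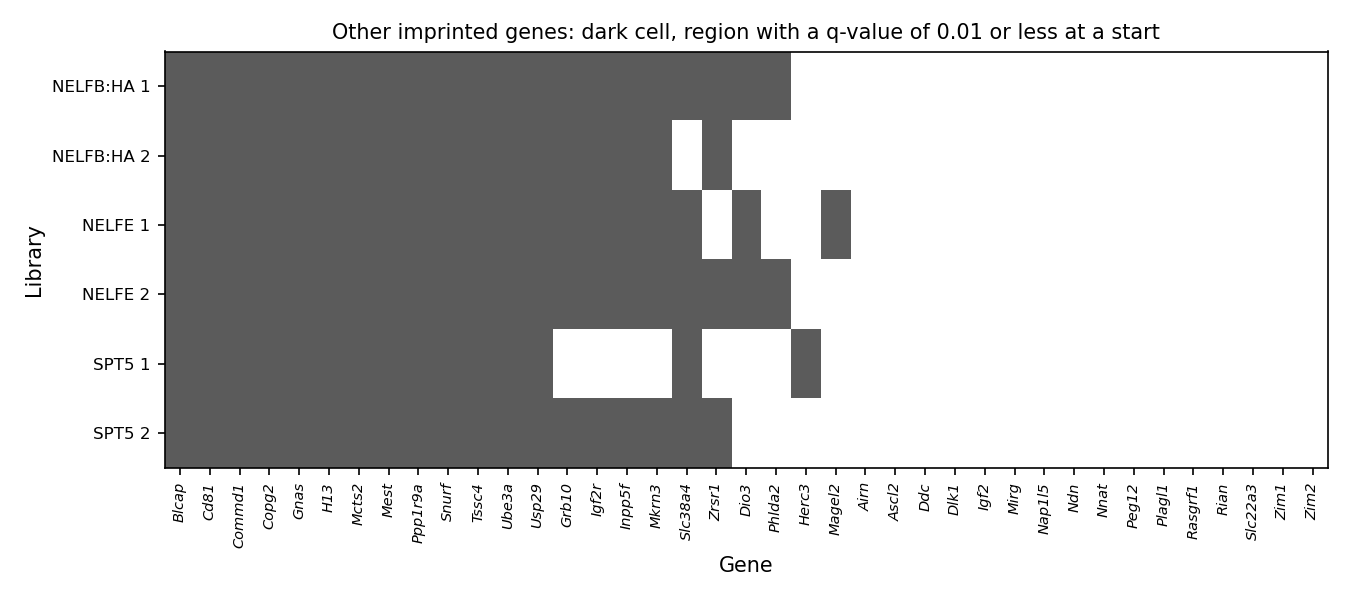
Presence (dark) or absence (white) of a region with a q-value of 0.01 or less over a start, for the 39 other imprinted genes with a listed start (x axis) in the 6 libraries (y axis). 13 genes are dark in all 6 libraries and 16 in none.

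Most of the examined genes that mark embryonic stem cells had strong starts in these lists. Of all genes with a listed start, 21.1% had a strong start in all 6 libraries, and of protein-coding genes 29.1%. Of 7 stem cell genes with a listed start, Pou5f1, Sox2, Zfp42, Klf4 and Tfcp2l1 had a strong start in all 6 libraries, Nanog in 2 and Esrrb in none. Nanog and Esrrb both had strong regions within the gene or 5 kb of it in both NELFB:HA and both NELFE libraries. Pax6, Neurog2 and Ptprc, markers of neural and blood cells and the only genes of other cell types with a listed start among the 8 examined, had no strong start in any library. Counted over the gene and 5 kb on either side, the endoderm genes Sox17, Gata4 and Gata6 had strong regions in both NELFE libraries, Sox17 also in both NELFB:HA libraries, and none of the 8 in both SPT5 libraries. Of all genes, 28.1% had such a region in both NELFE libraries, 23.5% in both NELFB:HA and 20.3% in both SPT5 libraries.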

How the data were processed

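Each control library has a peak list that the authors called with MACS 2.1.1.20160309 in broad mode against an input, for each library on its own, per the file headers. The submitters' processing notes name Bowtie2, deepTools, MACS2 and the build mm10, with no further versions. Strong stretches passed p of 0.01 and were joined through weak ones at p of 0.1, with at most 1 tag per position, tags extended to 227 bp (NELF) or 206 bp (SPT5), and the larger of ChIP and input scaled to the smaller, per the file headers. Library depth was 27324697 to 62312558 filtered tags. Within each antibody the deeper library has the shorter list. Broad joining sets where regions end.

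The deposited pileup signal is the mean scaled coverage of a region. The deposited fold enrichment is its ratio to the local input. Deposited significance is given as −log10 p-value and as −log10 q-value, each the authors' mean over a region, and the q-value column was used although the headers say that q is not calculated. Ranks were read within a list only. Folds and q-values were also set side by side across lists, which differ in depth and in part in input, and no test of them was run.

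Regions were joined to RefSeq starts (250 bases before to 50 after, 1 bp of overlap) with Python 3.11.15, numpy 2.4.6 and pandas 2.3.3, and the scripts were checked on simulated data. Length per library of regions with a q-value of 0.01 or less was compared between antibodies with two-sided exact permutation tests. Of 15 planned tests 9 were run, because all lengths at Meg3 and H19 are 0. For each window the region of highest pileup and every strong region were named. Alternatives were other thresholds, region sets and window rules, ranks by fold or p, leaving out each replicate, and a replicate block. The members and the gene lists were chosen with earlier results of these data known. The window of 5 kb around each start, the limit of 6 kb and the range of gene lengths were chosen after seeing the data. Nespas was not in the gene table, and H19 was not in the start table. The 18 samples without a list here were not analysed.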

Additional observations from a re-analysis of the deposited data

How the results depend on the processing

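Of 81 alternatives to the 9 length differences, 50 kept the direction and stayed within 1 pooled SD, 16 moved farther and 15 reversed. The cause was not tested, beyond the fewer or more regions each setting admits. The 50 include settings that could change little or nothing. A replicate block keeps every mean difference by construction, and unclipped regions gave the same lengths. The limit of 5 kb around the start changed only the SPT5 differences at Kcnq1ot1, to 3717 and 3099 bp. NELFB:HA minus NELFE at Kcnq1ot1 became 2268.5 bp at a q-value of 0.05 and 13578 bp with every region, and -1425 to 189 bp with 1 replicate left out. Every region also reversed NELFB:HA minus NELFE at Peg3 (3248.5 bp) and Snrpn (4257 bp) and SPT5 minus NELFE at Snrpn (6618.5 bp), and moved SPT5 minus NELFB:HA to 10435 bp at Kcnq1ot1 and 2361.5 bp at Snrpn and SPT5 minus NELFE to 24013 bp at Kcnq1ot1 and 4355 bp at Peg3. SPT5 minus NELFB:HA at Kcnq1ot1 was 857 bp at a q-value of 0.05 and 0 at 1e-05. A q-value of 1e-05 reversed SPT5 minus NELFE at Kcnq1ot1 (-1308 bp) and Peg3 (-2478.5 bp) and SPT5 minus NELFB:HA at Snrpn (-1498 bp), which was -275.5 bp over the 10000 regions of highest pileup. At 1e-05, NELFB:HA minus NELFE was -3010 bp at Peg3 and -2322 bp at Snrpn, and SPT5 minus NELFE at Snrpn was -3820 bp. Over the 10000 regions of highest pileup these Snrpn values were -2322 and -2597.5 bp. With 1 replicate left out, SPT5 minus NELFB:HA ran from 2154 to 5333 bp at Kcnq1ot1, -851 to 1315 bp at Peg3 and -511 to 1253 bp at Snrpn. SPT5 minus NELFE then ran from 2343 to 3908 bp at Kcnq1ot1, -1396 to 1470 bp at Peg3 and -1074 to 128 bp at Snrpn, and NELFB:HA minus NELFE from -2711 to 2321 bp at Peg3.

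The count of windows with a strong region in both libraries fell to 0 for NELFB:HA and for SPT5 at a q-value of 1e-05 and to 1 for NELFB:HA over the 10000 regions of highest pileup. It was 2 and 3 for NELFB:HA with 1 replicate left out, the 3 resting on the first library alone. The strongest region's mean place in the list, as a percent, moved from 29.8 by pileup to 38.3 by fold and 35.0 by p for Meg3 with NELFB:HA. With NELFB:HA it moved from 2.61 to 3.17 and 2.32 for Kcnq1ot1, from 2.02 to 1.79 and 1.77 for Peg3 and from 2.29 to 1.5 and 1.77 for Snrpn. With NELFE it moved by fold from 3.36 to 2.83 for Kcnq1ot1 and from 3.61 to 2.69 for Snrpn. The widest ratio, within the replicate SD, was at Snrpn with SPT5, from 4.13 to 1.76 by fold and 2.75 by p. Meg3 with NELFE went from 61.5 to 46.8 by fold, also within it.

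With the titles' replicate numbers as a replicate block, mean differences stay as they are by construction: SPT5 minus NELFB:HA at Kcnq1ot1 was 3743.5 bp, with an SD of same-numbered differences of 2247.9 bp and an exact sign-flip permutation p of 0.5, the smallest that 2 pairs allow. No call changed. The file headers number the NELF libraries otherwise than the titles, so the numbers are not known to pair libraries. What depth limits here was not tested: within each antibody the deeper library has the shorter list.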

Other observations

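Grouped by the parent from which each of the other imprinted genes is usually expressed, a grouping made after seeing the values, 18 paternally expressed genes had a listed start. The parent was assigned from general knowledge. It depends on the tissue for some genes and was not measured in these cells. A strong region in both libraries was present at 6 of them with NELFB:HA (33.3%), 7 with NELFE (38.9%) and 5 with SPT5 (27.8%), and 9 had none in any library. Of 11 maternally expressed genes, 5 had such a region with NELFB:HA (45.5%), 5 with NELFE (45.5%) and 3 with SPT5 (27.3%), and 5 had none. A further 10 genes not assigned to a parent had shares of 70%, 70% and 60%, and all genes with a listed start 26.5%, 31.1% and 22.6%. No share over all genes is given for a strong start in no library. The paternal group includes Usp29 and Snurf, whose regions are those of Peg3 and Snrpn. Peg3, Snrpn and Kcnq1ot1 contrasted with Meg3 and H19. In this list the share of genes assigned as paternally expressed was not higher than that of genes assigned as maternally expressed with either NELF antibody. Whether the assigned parent holds in these cells is not known. No test of the difference was run. Paternally expressed genes without a strong start in any library included Igf2, Dlk1, Ndn, Peg12, Nnat, Plagl1, Rasgrf1, Nap1l5 and Airn, whose RNA is read from within Igf2r. Maternally expressed ones included Ascl2, Slc22a3, Zim1, Rian and Mirg.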
